A study of Mus musculus with 2 samples.

Results

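The 10 genes described here mark hepatic stellate cells and vascular mural cells, the contractile and matrix-making cells that wrap the sinusoids and the larger vessels of the liver. They were chosen by symbol, as markers of these cells other than collagens, and all 10 were found among the 24054 genes of the deposited TPM table (Rgs5, Des, Pdgfrb, Dcn, Lum, Acta2, Tagln, Reln, Hand2 and Ecm1). Liver RNA came from Pgrmc1 KO mice (Pgrmc1 -/Y) and wild-type (WT) mice, all male, of strain C57BL/6 and 8 to 12 weeks old. In the KO mice the gene lacks exons 1 and 2 in the whole body, after a cross of a floxed allele made in C57BL/6N with Sox2-Cre mice, so the deletion was not limited to one cell type of the liver. The liver RNA of 5 mice was combined by genotype in equal amounts, and each pool was sequenced as 1 library. The spread between mice was therefore not measured, no difference below has a replicate check, and no test between genotypes could be made.

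Stellate cells lie in the space between hepatocytes and the sinusoidal endothelium, store vitamin A as retinyl esters, and become contractile, matrix-depositing myofibroblasts after injury. Mural cells are the smooth muscle cells of arteries and veins and the pericytes of smaller vessels. They share with stellate cells the PDGF receptor beta and parts of the contractile machinery, but differ in how much smooth muscle actin, calponin and myosin they make. These cells are a minority of liver cells, and in RNA of whole liver fewer cells of a type and less RNA per cell cannot be told apart.

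Levels are given in TPM, a gene's share of the transcript pool corrected for transcript length, so that levels of different genes can be set side by side. The log2 change of a gene is its KO level over its WT level after 1 TPM was added to both, so that differences of scarce genes come out smaller than they were. For each gene a 95% Clopper-Pearson interval of the log2 ratio of the authors' library means was computed from estimated reads. It covers counting error only, not differences between mice. The libraries held an estimated 22086692 reads (KO) and 29710419 reads (WT) on genes. Pgrmc1 itself stood at 0.68 TPM in the KO pool and 949.49 TPM in the WT pool, which matches the labels.

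Together the 10 genes made up 232.25 TPM in the KO pool and 266.36 TPM in the WT pool, or 0.0231% and 0.0268% of all TPM. The log2 ratio of these sums was -0.20. Of the 10 genes, 9 were lower in KO, where 53.8% of the 11623 genes averaging 1 TPM or more over both pools were lower. The median log2 change of the 10 was -0.23, against -0.01 over all those genes. Rgs5, Lum, Tagln and Acta2 were lower by at least 1.2-fold, with 1 TPM added to both levels, which is 4 of 10, while 5.51% of all genes were. On that scale Acta2 at 0.770-fold was the last inside this mark and Des at 0.835-fold the first outside it. Acta2 averaged 1 TPM or more only through its WT level (0.91 TPM in KO and 1.48 TPM in WT). No member was higher by 1.2-fold (0 of 10, against 5.39% of all genes). With 1 TPM added as before, 0 of 10 were at most 0.6-fold (0.301% of all genes) and 0 of 10 at least 1.4-fold (1.21%), the fold limits of the study without its limit on probability. With falls counted from 1/1.4, the mirror of the rise, 3 of 10 passed in place of 0, against 2.23% of all genes in either direction. The counting interval lay below 0 for 6 members (Rgs5, Dcn, Lum, Acta2, Tagln and Reln), against 13.4% of 11543 genes, and above 0 for 0 members, against 11.7%. Since low genes scatter more, the 7 members with a mean of 1 to 20 TPM were also set against the 7746 genes in that range. There, 4 of 7 were lower by at least 1.2-fold, against 6.08%, and 0 of 7 were higher by as much, against 6.64%. The counting interval lay below 0 for 4 of these 7, against 8.94%, and above 0 for 0 of 7, against 8.65%. Genes above 20 TPM pass the interval call more often than genes in this range. Dcn and Reln lie above it and were called at log2 changes of -0.20 and -0.17.

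**Figure D1:**
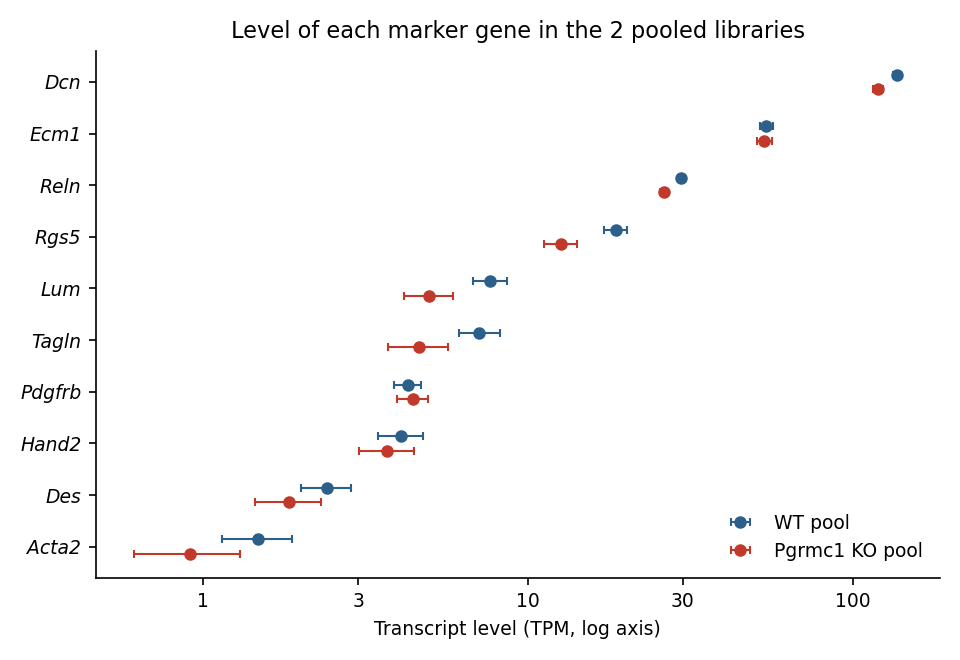
Level of each of the 10 marker genes in TPM (log axis) in the WT pool (blue) and the Pgrmc1 KO pool (red), 1 library each, with bars for the exact 95% Poisson interval of the estimated reads. The bars of the pools are apart for Dcn, Reln, Rgs5, Lum and Tagln, and overlap for Ecm1, Pdgfrb, Hand2, Des and Acta2.

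The contractile and cytoskeletal members, Acta2, Tagln and Des, summed to 7.36 TPM in the KO pool and 10.97 TPM in the WT pool. Acta2 (chromosome 19, 34240336 to 34255585 of GRCm38) encodes smooth muscle alpha-actin, the usual mark of contractile mural cells and of activated stellate cells. It was the least abundant member, at 0.91 TPM in the KO pool and 1.48 TPM in the WT pool. Its log2 change was -0.38, and the interval of the ratio of means ran from -1.38 to -0.06 on only 30 and 66 estimated reads. Tagln (chromosome 9, 45929628 to 45936058) encodes transgelin, an actin-binding protein of smooth muscle. It stood at 4.61 TPM in the KO pool and 7.09 TPM in the WT pool, a log2 change of -0.53 (interval -0.99 to -0.24, on 91 and 188 estimated reads). Des (chromosome 1, 75360292 to 75368579) encodes desmin, the intermediate filament of muscle cells and a classical stellate cell marker in rodents. Desmin transcript was at 1.84 TPM in the KO pool and 2.40 TPM in the WT pool, with a log2 change of -0.26. Its interval of -0.81 to 0.04 held 0, so at this depth (74 and 130 estimated reads) no difference could be told from counting error for Des alone. Summed over these 3 genes, the log2 ratio of the authors' means was -0.54 (interval -0.80 to -0.29).

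Rgs5 (chromosome 1, 169655501 to 169695813) encodes a regulator of G protein signalling that speeds the turn-off of G proteins downstream of vasoactive receptors and marks pericytes. Its level was 12.60 TPM in the KO pool and 18.63 TPM in the WT pool, on 290 and 574 estimated reads. The log2 change of -0.53 came with an interval of the ratio of means of -0.76 to -0.35. Only 0.774% of those 11623 genes had a lower log2 change than Rgs5.

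Promoter sequences from RefSeq (GRCm38.p6, 250 bases before to 50 after the start used by the source) were listed for 6 of the 10 members. For Acta2 and Ecm1 that start lies inside the gene span given here, and the whole Ecm1 window (95739520 to 95739819) lies within its gene. Those of the mural genes Acta2, Des and Rgs5 are shown as the contractile and pericyte members with a listed promoter, since smooth muscle promoters are known for the CArG box, the site read by serum response factor. Capitals mark CArG boxes with up to 1 G or C in the A/T core. The motif is its own reverse complement, so both strands are covered, and no other motif was searched.
Acta2 (chr19:34255324-34255623, minus strand): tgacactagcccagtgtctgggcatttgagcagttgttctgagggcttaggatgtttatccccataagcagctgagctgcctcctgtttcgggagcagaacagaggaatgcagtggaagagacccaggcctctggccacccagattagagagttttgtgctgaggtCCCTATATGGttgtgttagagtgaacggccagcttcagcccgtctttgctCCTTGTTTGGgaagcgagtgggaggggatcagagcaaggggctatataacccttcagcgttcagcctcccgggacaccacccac
Des (chr1:75360042-75360341, plus strand): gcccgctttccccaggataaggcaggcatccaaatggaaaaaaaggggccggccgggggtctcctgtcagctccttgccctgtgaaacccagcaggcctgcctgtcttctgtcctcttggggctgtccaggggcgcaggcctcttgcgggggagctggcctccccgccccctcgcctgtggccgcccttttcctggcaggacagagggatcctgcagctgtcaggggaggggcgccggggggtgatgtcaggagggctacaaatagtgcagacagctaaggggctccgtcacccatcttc
Rgs5 (chr1:169655251-169655550, plus strand): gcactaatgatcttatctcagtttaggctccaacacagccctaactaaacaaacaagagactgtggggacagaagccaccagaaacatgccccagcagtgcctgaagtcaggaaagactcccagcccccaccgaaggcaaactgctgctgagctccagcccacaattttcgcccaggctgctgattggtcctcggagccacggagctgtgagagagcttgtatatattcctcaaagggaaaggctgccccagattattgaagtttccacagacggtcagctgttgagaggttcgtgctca
The Acta2 promoter held 2 such boxes, CCCTATATGG and CCTTGTTTGG, each with 1 G or C in the core. They begin 84 and 34 bases before the start used, and both lie inside the Acta2 span, which ends at 34255585. No such letters were found in this window of Des, Rgs5, Reln, Hand2 or Ecm1. Among 11137 promoters of genes at or over that 1 TPM average, 8.94% held a box of this kind and 1.24% a perfect one. A match describes letters only, and no binding was measured.

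Dcn and Lum lie side by side on chromosome 10 (97479500 to 97518163 and 97565501 to 97572703). They encode decorin and lumican, small leucine-rich proteoglycans that bind collagen fibrils and control their width. Dcn was the most abundant member, at 119.52 TPM in the KO pool and 137.03 TPM in the WT pool, and carried 51.5% of the summed TPM in KO and 51.4% in WT. Its log2 change of -0.20 was small but well counted (2857 and 4375 estimated reads, interval -0.25 to -0.11). Lum stood at 4.96 TPM in the KO pool and 7.63 TPM in the WT pool, a log2 change of -0.53 and the lowest of the 10 members. Its interval of the ratio of means, -0.93 to -0.31, did not overlap that of Dcn. Both proteoglycans were thus lower in KO, Lum by 35.0% and Dcn by 12.8% of the WT level.

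**Figure D2:**
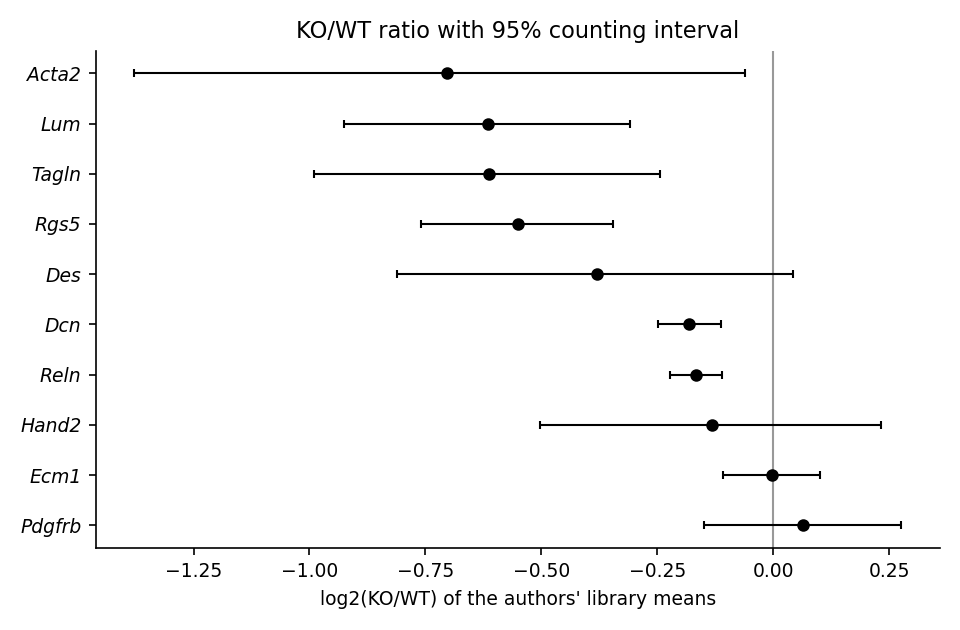
log2(KO/WT) of the authors' library means for each of the 10 marker genes (points), with the 95% Clopper-Pearson interval of counting error (bars) and a line at 0. The intervals of 6 genes lie wholly below 0, and those of Des, Hand2, Ecm1 and Pdgfrb hold 0.

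Reln and Ecm1 encode secreted glycoproteins. Reelin is best known for guiding neurons in the developing brain and in liver is made by stellate cells, while extracellular matrix protein 1 is a matrix-associated glycoprotein. Reln (chromosome 5, 21884454 to 22344705) was at 26.23 TPM in the KO pool and 29.64 TPM in the WT pool, a log2 change of -0.17 with an interval of -0.22 to -0.11. Ecm1 (chromosome 3, 95734147 to 95739876) was at 53.48 TPM in the KO pool and 54.14 TPM in the WT pool. Its log2 change was -0.02, and its interval of -0.11 to 0.10 held 0. The intervals of Reln and Ecm1 do not overlap, on 4264 and 1301 estimated reads in KO.

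Pdgfrb and Hand2 stand for the receptor and the transcription factor of this cell lineage. Pdgfrb (chromosome 18, 61045127 to 61085067) encodes PDGF receptor beta, through which PDGF drives pericyte recruitment and stellate cell growth. It was the only member higher in KO, at 4.42 TPM against 4.26 TPM in WT. The log2 change was 0.04 and the interval ran from -0.15 to 0.28. Hand2 (chromosome 8, 57320983 to 57324517), a basic helix-loop-helix factor found in stellate cells, stood at 3.68 TPM in the KO pool and 4.06 TPM in the WT pool. Its log2 change was -0.11, and its interval was -0.50 to 0.23 on 106 and 157 estimated reads. For neither gene could a difference be told from counting error at this depth. The interval of Pdgfrb did not overlap that of Rgs5, another marker of pericytes.

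**Figure D3:**
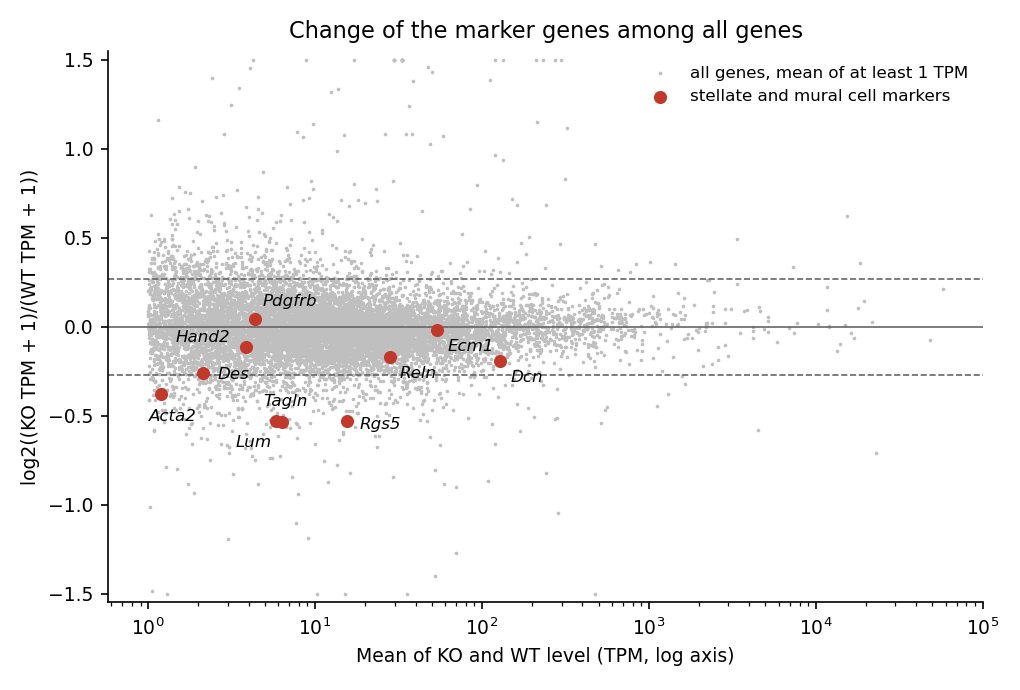
The log2 change (1 TPM added to both levels) against the mean TPM of both pools (log axis) for 11623 genes averaging 1 TPM or more (grey) and the 10 marker genes (red), with dashed lines at the 5th and 95th percentiles of all genes, -0.27 and 0.27. The 26 genes beyond 1.5 in either direction are drawn at the edge. Rgs5, Lum, Tagln and Acta2 lie below the lower dashed line, and Des lies just above it.

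The order of the 10 levels was the same in both libraries, from Dcn through Ecm1, Reln, Rgs5, Lum, Tagln, Pdgfrb, Hand2 and Des down to Acta2. Most neighbours differed beyond counting error. Lum and Tagln did not in either library, nor did Pdgfrb and Hand2. Tagln and Pdgfrb were apart in WT (7.09 and 4.26 TPM) and overlapped in KO (4.61 and 4.42 TPM). Changes among the members spanned 0.58 on the log2 scale, from Lum to Pdgfrb. No member shared an exact 100-base window of its GENCODE transcripts with another gene, Acta2 included. The other muscle actins were scarce, with Acta1 at 0.26 TPM in KO and 0.20 in WT, Actc1 at 0.06 and 0.18, and Actg2 at 0.12 and 0.28. The deposited posterior mean can stay above 0 with no read, as for Actc1 in KO (0 estimated reads). Some members overlap genes of the opposite strand in their exons, and the strand setting used by the authors is named but its value is not given. For Tagln these are Pcsk7 (108 bases, 13.02 TPM in the KO pool and 13.53 TPM in the WT pool) and Gm48529 (1241 bases), for Des Gm15179 (220 bases, 0.14 and 0.11 TPM), for Reln Gm10475 (246 bases) and for Hand2 Hand2os1 (461 bases).

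Other genes of these cell types and pathways were set beside the members. Counts and medians in these lists cover genes averaging 1 TPM or more, while sums cover every listed gene. Of all 11623 genes at that level, 53.8% were lower in KO and 5.51% by at least 1.2-fold. Higher by at least 1.2-fold were 5.39%, and by at least 1.4-fold 1.21%. Among other pericyte genes, 7 of 8 were lower in KO and 6 of 8 by at least 1.2-fold, with a median log2 change of -0.34. The other 10 of the 18 listed averaged under 1 TPM, and the median over all 18 was -0.07. Abcc9, the sulfonylurea receptor subunit of the vascular potassium channel and the most abundant of them, stood at 11.66 TPM in the KO pool and 14.94 TPM in the WT pool (log2 change -0.33, interval of the ratio of means -0.45 to -0.24). Rgs4 was lowest at 0.89 and 1.62 TPM (log2 change -0.47), and Gucy1a3, a subunit of the nitric oxide receptor, was highest at 4.94 and 4.87 TPM (log2 change 0.02). Rgs4 averaged 1 TPM or more only through its WT level, which favours a fall among the counted genes. Some defining mural genes were close to 0 in both pools, among them Cspg4 (0.02 TPM in KO and 0.08 in WT) and Cnn1 (0.08 and 0.09). Both were chosen after their values were seen.

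Of 34 other genes of stellate cells, 30 were counted, 16 were lower and 14 higher in KO, and the median log2 change was -0.03. Of these 30, 2 were lower by at least 1.2-fold, where 5.51% of all genes were. Lrat, the enzyme that esterifies vitamin A and a defining stellate cell gene, was the highest of the list, at 12.81 TPM in the KO pool and 11.25 TPM in the WT pool (log2 change 0.17, interval of the ratio of means 0.07 to 0.33). Adamtsl2, a secreted binder of matrix microfibrils, was the lowest, at 4.54 and 6.60 TPM (log2 change -0.46). On the mean of both pools the most abundant was Tmem56 at 132.82 and 140.68 TPM (log2 change -0.08). No test sets this list against the members. Its summed level was 625.4 TPM in the KO pool and 620.1 TPM in the WT pool. Tmem56 weighed heavily in these sums, as did Cxcl12 (138.60 TPM in KO and 126.89 TPM in WT), Steap4 (87.80 and 78.91) and Cdh2 (53.59 and 51.50). The sums therefore say little of scarcer genes such as Lrat.

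Of 19 counted genes of the smooth muscle contractile apparatus, 13 were lower in KO, and the median log2 change was -0.07. By at least 1.2-fold 4 of the 19 were lower, against 5.51% of all genes. Myl9, a regulatory light chain of smooth muscle myosin, was lowest at 3.73 TPM in the KO pool and 5.49 TPM in the WT pool (log2 change -0.46). Ppp1r14a, an inhibitor of myosin phosphatase, was highest at 4.74 and 3.60 TPM (log2 change 0.32), on 23 estimated reads in each library. Myl6 was most abundant at 335.49 and 358.39 TPM (log2 change -0.09). Among 10 counted SRF cofactors and muscle transcription factors, 7 were lower and 0 passed 1.2-fold in either direction. They ran from Tead1 (log2 change -0.18) to Gata4 (0.13), with Mef2a most abundant at 14.09 and 14.76 TPM. Gata4 and Gata6 are also in the list of other stellate cell genes. The cytoplasmic actins Actb (884.83 and 933.42 TPM) and Actg1 (81.68 and 81.03 TPM) had log2 changes of -0.08 and 0.01.

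Of 5 counted small leucine-rich proteoglycans, 2 were lower and 3 higher in KO, and 0 passed 1.2-fold. Biglycan (Bgn), the close relative of decorin, was the most abundant and the lowest, at 42.16 TPM in the KO pool and 46.76 TPM in the WT pool (log2 change -0.15), and Podn was highest at 1.23 and 1.0 TPM (log2 change 0.16). Of 12 portal fibroblast genes 8 were lower, from Dpt, the dermatopontin gene, at 2.66 and 4.21 TPM (log2 change -0.51) to Gas6, the ligand of TAM receptors and the most abundant of the list, at 22.36 and 18.33 TPM (log2 change 0.27).

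The PDGF family and the partners of Reln were also read. Pdgfa, whose product signals through PDGF receptor alpha, was higher in KO, at 6.03 TPM against 3.90 TPM in WT (log2 change 0.52, interval 0.14 to 1.17). It was the 1 gene past 1.4-fold of the 4 counted in the PDGF list, against 1.21% of all genes. Pdgfb, the main ligand of Pdgfrb, stood at 1.0 TPM in the KO pool and 0.92 TPM in the WT pool (log2 change 0.06). Pdgfc had a log2 change of 0.21 (2.85 and 2.32 TPM), Pdgfd of -0.13 (1.31 and 1.53 TPM), the receptor Pdgfra of -0.08 (2.59 and 2.79 TPM) and Pdgfrl of -0.06 (0.78 and 0.86 TPM). Of the reelin receptors, Vldlr was at 1.43 TPM in the KO pool and 1.58 TPM in the WT pool (log2 change -0.09) and Lrp8 at 0.05 and 0.06 TPM. The adaptor Dab1 was at 0.24 and 0.23 TPM (log2 change 0.01) and Dab2 at 5.14 and 4.80 TPM (0.08). The kinase Fyn was lowest of that list at 4.44 and 5.51 TPM (-0.26), while Crk (-0.08), Crkl (0.03) and Pafah1b1 (-0.09) lay near 0 on the log2 scale. In the R4 family of RGS genes, to which Rgs5 belongs, 4 of 5 counted genes were lower, with a median of -0.47 that went to -0.04 over all 9 listed. The median of the 5 is the value of Rgs4, on 34 and 84 estimated reads, and Rgs4 is also among the other pericyte genes. Rgs16, which hepatocytes also make, was lowest and most abundant at 37.84 and 66.91 TPM (log2 change -0.81), and Rgs1, a gene of leukocytes, highest at 1.96 and 1.42 TPM (0.29).

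**Figure D4:**
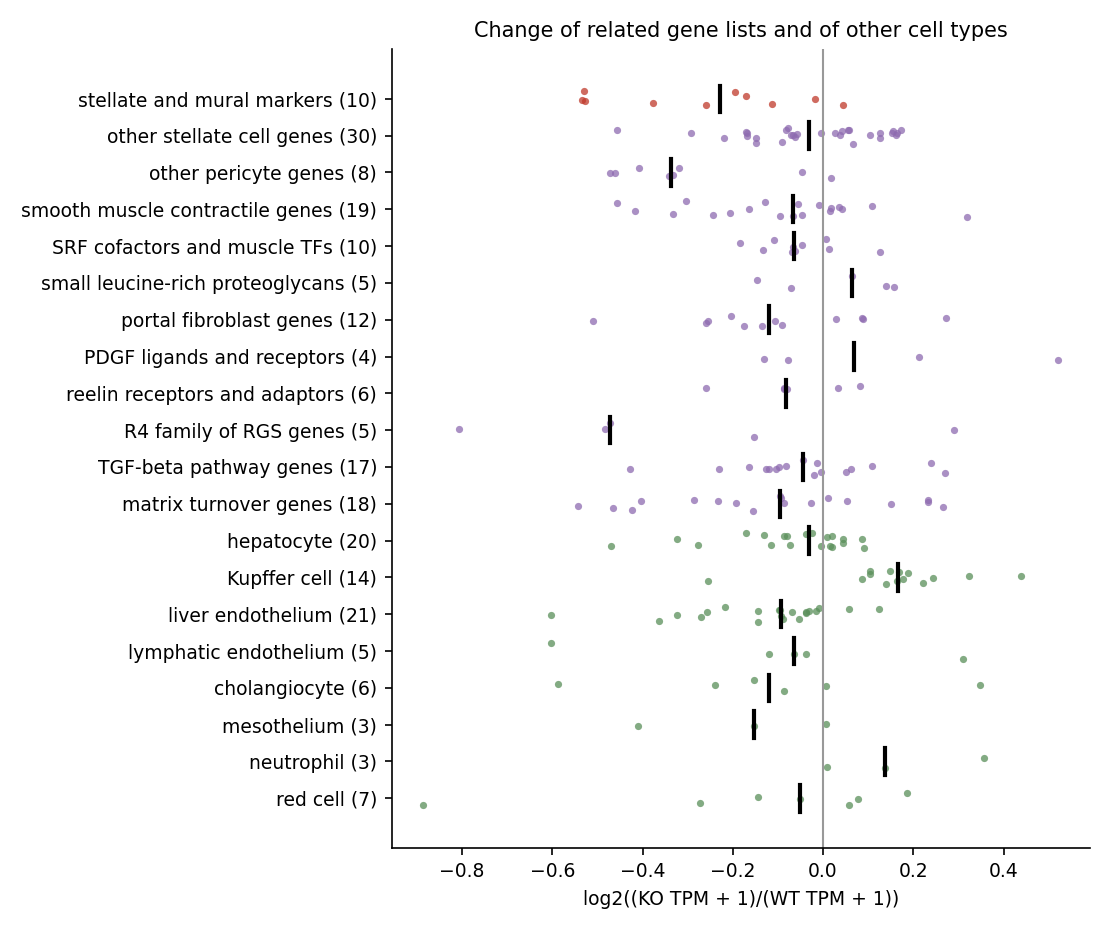
The log2 change (1 TPM added to both levels) of each gene averaging 1 TPM or more (points) in the marker genes (red), related gene lists (purple) and lists of other cell types with at least 3 such genes (green), with a bar at each median and the number of genes in brackets. The medians of the markers and of other pericyte genes lie at -0.23 and -0.34, that of other stellate cell genes at -0.03 and that of Kupffer cell genes at 0.17.

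Markers of other liver cells were read beside these values, and their part in them was not tested. The summed level of the 20 hepatocyte genes was 127000 TPM (KO) and 130391 TPM (WT), with 12 lower and a median log2 change of -0.03 (from Ass1 at -0.47 to Fgb at 0.09). Of 21 liver endothelial genes 19 were lower, with a median of -0.09 and sums of 394.6 and 427.8 TPM. They ran from Lyve1 (-0.60) to Wnt2 (0.12), and 4 of the 21 were lower by at least 1.2-fold, against 5.51% of all genes. Of 14 Kupffer cell genes 13 were higher, with a median of 0.17 and sums of 460.1 and 405.9 TPM, from Cd68 (-0.26) to Folr2 (0.44). Genes of lymphatic endothelium (5 counted, sums of 65.0 and 65.9 TPM) ran from Lyve1 (-0.60) to Prox1 (0.31). Prox1 gave 34.15 TPM (KO) and 27.37 TPM (WT) of these sums, and Lyve1 and Flt4 are also in the liver endothelial list. Genes of mesothelium (3 counted, 177 and 197 TPM) ran from Gpm6a (-0.41) to Krt19 (0.01). Krt18 alone gave 173.69 TPM (KO) and 193.16 TPM (WT), so the mesothelium sums follow that gene. Of 6 counted cholangiocyte genes (sums of 69.0 and 73.3 TPM) 4 were lower, with a median of -0.12 and Epcam lowest (-0.59). Red cell genes (7 counted) summed to 1428 and 1444 TPM, from Hbb-bs (-0.89) to Hba-a1 (0.19). Genes of T, NK and B cells (2 counted, 11.2 and 11.3 TPM) ran from Ptprc (-0.00) to Cd79b (0.42), and of neutrophils (3 counted, 9.96 and 9.06 TPM) from S100a8 (0.01) to S100a9 (0.36). None of these listed genes was at 0 TPM in both libraries, which for a posterior mean does not show that reads were found.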

How the data were processed

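The authors pooled liver RNA by genotype, prepared 1 library per pool (Illumina TruSeq Stranded Total RNA) and sequenced paired-end reads of 100 bases. Per the labels, CASAVA 1.8.2, RSEM 1.2.09 and Bowtie were used with mm10. The deposited TPM are posterior means from RSEM for 24054 genes (column totals of 1005325 for KO and 994702 for WT), and how they were scaled after RSEM is not stated in the sources used here. A second deposited table holds, for 16318 genes, a normalized signal (the authors' library means from EBSeq) and the authors' own probabilities and fold changes, which were not used. The columns of that signal name no genotype and were assigned by the order in the comparison's name and the study's table. The most frequent value of the signal, refined over its low multiples, was taken as 1 read (1.16 in KO and 0.86 in WT). Within a tolerance of 0.02, 78.4% and 75.1% of values were whole reads. The intervals were computed from these estimated reads rounded to whole numbers, and no p-value was computed.

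A pseudocount of 1 TPM and a mean of at least 1 TPM were used. A gene under 1 TPM in 1 pool can pass this mean through the other pool. Among genes named here, Acta2, Rgs4, Thbs1, Gpm6a and Epcam passed only through WT, and Cd79b only through KO. Named genes were Pgrmc1, the 10 members, all muscle actins, PDGF and reelin partners, and the highest, lowest and most abundant gene of each related list (for other cell types the highest and lowest). A gene named by this rule is not reported here. Others were chosen after their values were seen. Members and lists were chosen with earlier results of these data known. Older symbols were matched through RefSeq. The interval and fold calls were tried on Poisson counts simulated from the WT reads. These counts held no differences between mice or libraries, so the trial bears on the computation only. Computations used scipy 1.17.1, pandas 2.3.3 and numpy 2.4.6 under Python 3.11.15, and plots matplotlib 3.10.9. Alternatives were other pseudocounts, minimums, scalings and thresholds, and the authors' means.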

Additional observations from a re-analysis of the deposited data

How the results depend on the processing

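The alternatives were the library means of the authors, changes centred on the median of all genes, equal totals once the top 50 genes were left out, a pseudocount of 0.1 TPM, no minimum, a minimum of 5 TPM, and for single results another threshold or sum. The 41 values of single members under them kept their sign and moved by less than their counting error. The median log2 change of the members ran from -0.36 (6 members averaging 5 TPM or more) to -0.21 (centred). Of those 6, Lum and Tagln reached 5 TPM on average only through WT (4.96 and 4.61 TPM in KO). The log2 ratio of the summed members ran from -0.20 to -0.17, with -0.20 without Dcn. Members lower by at least 1.2-fold numbered 5 with the authors' means (7.92% of all genes) and with 0.1 TPM (7.94%), as Des then passes the mark. With falls counted to at most 1/1.4, in place of 0.6, 3 members passed the fold rule of the study in place of 0 (2.23% of all genes), as the wider threshold implies. The log2 change of Acta2 was -0.42 when summed with Acta1, Actc1 and Actg2. List medians under alternatives were added after the data were seen. Without a minimum on TPM the medians of the other pericyte genes and of the R4 family went to -0.07 and -0.04, and those of the PDGF list (-0.0023) and the T, NK and B cell list (-0.0012) changed sign; the red cell median also did so, with the authors' means (0.04) and without a minimum (0.06). No paired analysis was possible because there was 1 library per genotype, and for that reason none could be left out. Depth limits Acta2, Des, Tagln and Hand2 most, while pooling limits all members.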

Other observations

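Of 18 counted genes of matrix turnover in activated stellate cells, 12 were lower in KO and 5 by at least 1.2-fold (53.8% and 5.51% of all genes). The median log2 change of the 18 was -0.09. They ran from S100a6 (1.30 TPM in KO and 2.35 TPM in WT, log2 change -0.54, on 9 and 23 estimated reads) to the gelatinase Mmp2 (2.20 and 1.66 TPM, 0.27). Fn1, fibronectin, which hepatocytes also make, was the most abundant at 445.50 and 429.48 TPM (0.05). The counting interval lay below 0 for 5 of the 18, against 13.4% of all genes, and above 0 for 3, against 11.7%. Fn1 was among these 3, on 47410 and 61390 estimated reads.

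Of 17 counted TGF-beta pathway genes, 12 were lower in KO, against 53.8% of all genes, and the median log2 change was -0.04. Thbs1, thrombospondin 1, was lowest (0.91 TPM in KO and 1.57 TPM in WT, log2 change -0.43), the receptor gene Tgfbr2 highest (11.67 and 9.51 TPM, 0.27) and the integrin gene Itgb5 most abundant (30.61 and 29.29 TPM, 0.06).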
